A study of Homo sapiens with 4 samples.

Results

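In the miRNA count table, 10 of 2656 mature miRNAs were followed, chosen by name for their known links to low oxygen, inflammation and cell stress. They are hsa-miR-210-3p for hypoxia, hsa-miR-21-5p and hsa-miR-21-3p, hsa-miR-146a-5p, hsa-miR-146b-5p and hsa-miR-155-5p for NF-kB signalling and stress, and hsa-miR-193a-5p, hsa-miR-193a-3p, hsa-miR-193b-3p and hsa-miR-365a-3p (the prefix hsa, for human, is left out from here on). The cells were HEK293T, an embryonic kidney line with the SV40 large T antigen, equipped with a landing pad, a genomic site built to receive a transgene. The CAG lines had a pad with the CAG promoter, a synthetic fusion of viral enhancer and chicken beta-actin elements, and the PGK lines had a pad with the promoter of the phosphoglycerate kinase gene. Each group had 2 small RNA libraries, and the series asked which miRNAs differ between lines with different promoters. The lines were monoclonal, and the labels give neither their number nor whether replicates were separate cultures. P-values thus describe only the spread among these 4 libraries. Effects of the promoter and of the clone cannot be told apart. The labels name no hypoxia, cytokine or stress treatment, so no value here is a response to a named treatment of that kind. The growth state of the cells was not examined.

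A miRNA is cut from a hairpin precursor as 2 arms, called 5p and 3p, of which a single arm usually accumulates in the silencing complex. The seed, nucleotides 2 to 8 from the 5′ end, sets most of its targeting, so miRNAs with the same seed can act on shared targets. miR-210 is transcribed under hypoxia-inducible factor and dampens mitochondrial respiration. miR-21 is abundant in most cultured and cancer cells and targets PDCD4. NF-kB raises transcription of miR-146a and miR-155 in immune cells, where miR-146a acts as a brake through TRAF6 and IRAK1. miR-193 and miR-365 genes lie as neighbours at a pair of loci, and miR-365 is known to repress interleukin-6.

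The mature sequences, from RefSeq (GRCh38.p14), are shown because shared seeds and near-identical copies decide which reads can be told apart. They run 5′ to 3′ with the seed in capitals, and 9 of the 10 miRNAs had an entry; miR-21-3p is the other one.
miR-210-3p: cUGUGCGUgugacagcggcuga
miR-21-5p: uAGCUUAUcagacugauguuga
miR-155-5p: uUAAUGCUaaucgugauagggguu
miR-146a-5p: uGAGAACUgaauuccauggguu
miR-146b-5p: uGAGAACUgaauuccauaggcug
miR-193a-5p: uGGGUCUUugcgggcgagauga
miR-193a-3p: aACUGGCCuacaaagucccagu
miR-193b-3p: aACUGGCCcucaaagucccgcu
miR-365a-3p: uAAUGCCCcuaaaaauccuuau
miR-146a-5p and miR-146b-5p share the seed GAGAACU and differ by G18A and U21C (miR-146a base first, positions from the 5′ end) and by 1 further base at the end of miR-146b. miR-193a-3p and miR-193b-3p share the seed ACUGGCC and differ by U9C, A10U, A20G and G21C (miR-193a base first). Reads cut short at the 3′ end could belong to either miR-146, and the sources used here do not say how such reads were assigned. miR-365b-3p has the same 22 bases as miR-365a-3p, and the table gave these entries counts within 2 reads of each other in every library. The miR-365a-3p value is therefore a reading of both miR-365 hairpins.

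All hairpins were placed by name in GENCODE release 29 (GRCh38), since the deposited tables hold no coordinates. MIR210 lies at chromosome 11, 568089 to 568198 (minus strand), in an intron of the non-coding MIR210HG. MIR21, at chromosome 17, 59841266 to 59841337 (plus strand), overlaps an exon of an annotated transcript of VMP1. MIR146A (chromosome 5, 160485352 to 160485450) overlaps an exon of MIR3142HG, and MIR155 (chromosome 21, 25573980 to 25574044) an exon of MIR155HG. MIR146B (chromosome 10, 102436512 to 102436584) overlaps no other annotated gene.

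Library totals were 13780279 and 2845945 counts for CAG replicates 1 and 2, and 7927615 and 7331437 for PGK replicates 1 and 2. Levels are given as CPM, counts scaled by library size and a TMM factor. A read was worth between 0.0776 CPM (CAG replicate 1) and 0.324 CPM (CAG replicate 2). A count of 0 allowed a level of up to 0.233 to 0.972 CPM, depending on the library (3 counts per library, counting error only). Counts of miRNAs do not depend on their length, but adapter ligation favours some sequences, so levels of different miRNAs compare less firmly than levels of the same miRNA between libraries. In bulk RNA, fewer cells with a miRNA and less of it per cell cannot be told apart.

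miR-21-5p stood far above the other 9 miRNAs. It had 12256 and 8241 CPM in CAG replicates 1 and 2, against 11335 and 10758 CPM in PGK replicates 1 and 2. By mean level it ranked 23rd of all entries. It supplied 94.4% to 95.8% of the reads of the 10 miRNAs in CAG cells and 93.5% to 94.5% in PGK cells, and 0.894% to 1.15% of all miRNA counts over the 4 libraries. By mean over the groups it was 43.1-fold above miR-146b-5p, the next. miR-146b-5p, miR-365a-3p, miR-193b-3p and miR-210-3p followed at means of 247, 120, 112 and 89.6 CPM. miR-146b-5p was above the other 3 within every library, while miR-365a-3p, miR-193b-3p and miR-210-3p overlapped, each with the next, so the order of these 3 was not settled. miR-193a-5p, at a mean of 21.3 CPM, stood apart on both sides. miR-146a-5p and miR-21-3p came next at 7.96 and 7.70 CPM with overlapping libraries, and miR-193a-3p and miR-155-5p closed the list at 2.75 and 1.06 CPM. Only 1.42% of the 773 tested miRNAs had a lower mean than miR-155-5p, but the low-count filter had already removed most rarer ones. Among all entries, of which 1624 had a read, miR-155-5p ranked 788th by mean.

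**Figure D1:**
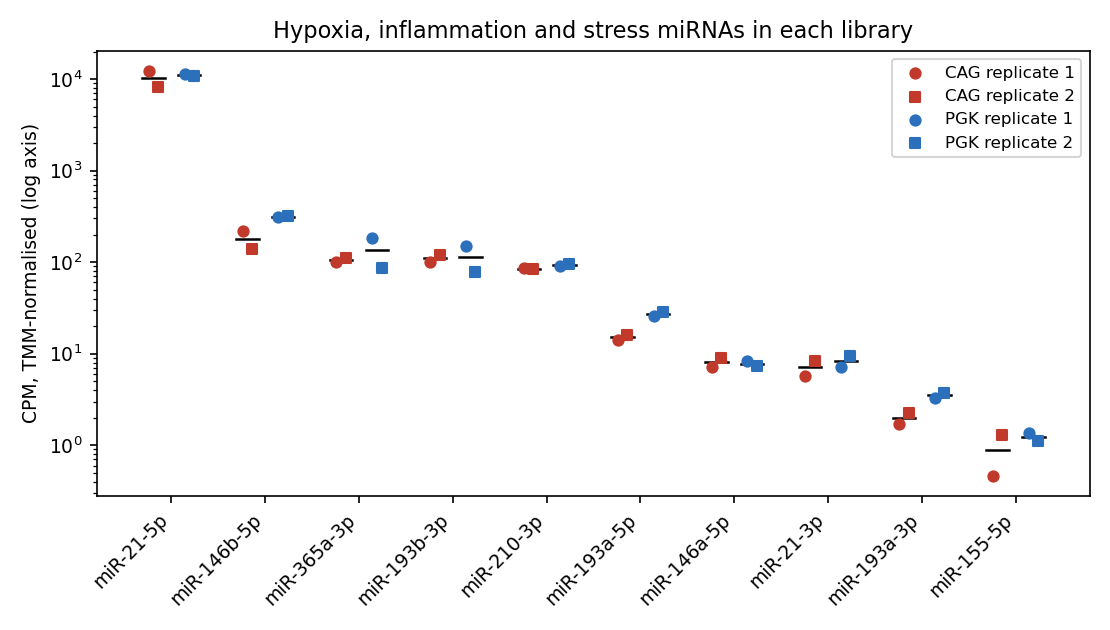
TMM-normalised CPM of the 10 miRNAs in each library on a log axis, with CAG libraries left of PGK libraries and circles and squares for replicates 1 and 2; black lines are group means. miR-21-5p sits at 8241 to 12256 CPM, far above the rest. The CAG points lie below the PGK points for miR-146b-5p, miR-193a-5p, miR-193a-3p and, by a small gap, miR-210-3p.

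Between the lines, 2 of the 10 miRNAs passed the test, and both were lower in CAG cells (edgeR quasi-likelihood test, Benjamini-Hochberg adjusted p under 0.05 over all 773 tested miRNAs). Over all tested miRNAs 14.2% were called, 6.08% lower and 8.15% higher in CAG cells. None of the 10 was called higher by edgeR, DESeq2 or limma-voom, and none was higher at an unadjusted p under 0.05. All 10 fitted log2 fold changes (CAG over PGK) were below 0, with a median of -0.34, while 388 of the 773 tested were below 0 and their median was -0.0042. No scaling alternative changed any of these 10 signs. Leaving out single libraries changed 6 of them. The 10 values are not independent, because miR-21 and miR-193a each appear with both arms, and miR-193b-3p and, in part, miR-365a-3p come from neighbouring hairpins. Some values were also very small, with -0.02 for miR-146a-5p and -0.06 for miR-193b-3p. The count of 10 signs is thus no test of a shared shift. In 4 of the 10, both CAG libraries lay below both PGK libraries, an arrangement that 27.4% of tested miRNAs had. For none of the 10 did both CAG libraries lie above both PGK libraries, against 29.8% of tested miRNAs.

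**Figure D2:**
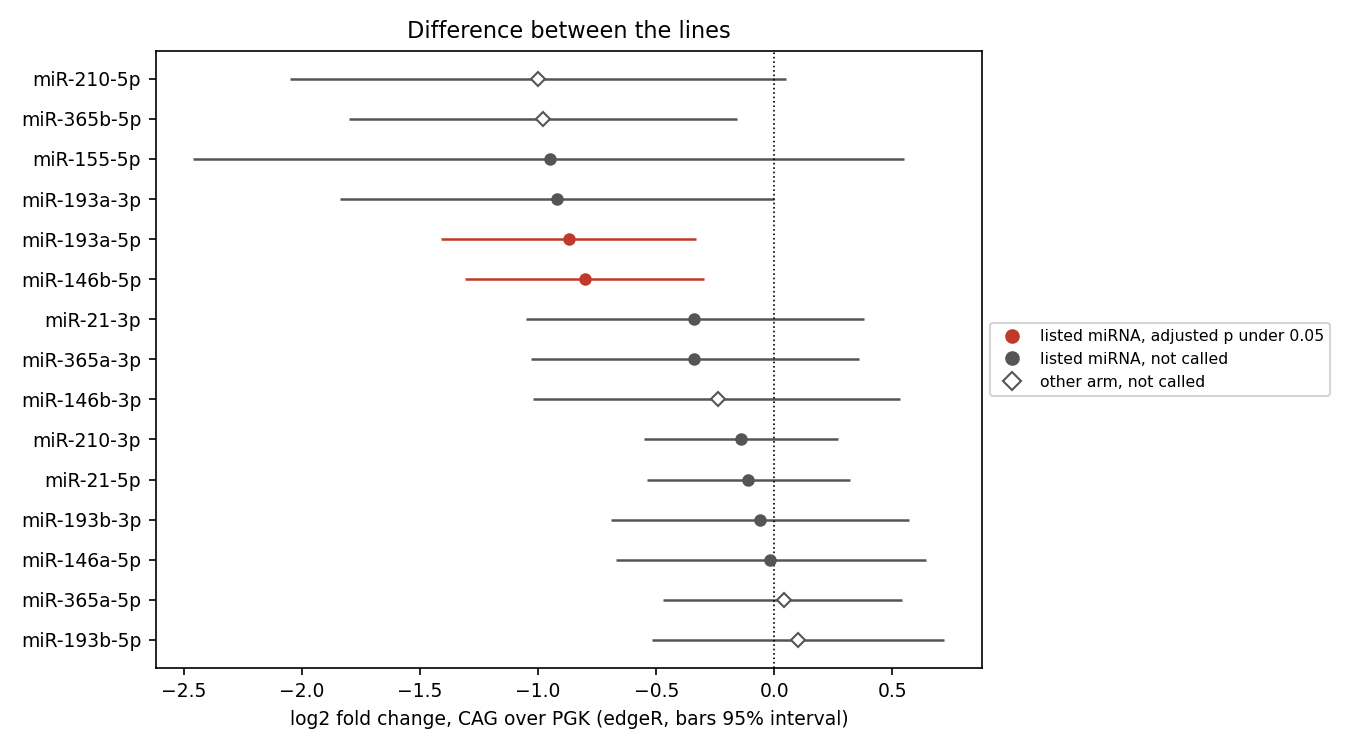
Fitted log2 fold change, CAG over PGK, with its 95% interval from edgeR for the 10 miRNAs (filled circles) and the other arms of their hairpins (open diamonds); miR-365b-3p, which repeats miR-365a-3p, is left out. The 2 called miRNAs (red) are miR-193a-5p and miR-146b-5p, and the intervals of all others except miR-365b-5p reach or cross 0.

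miR-210-3p, the hypoxia marker, had nearly the same level in every library. Its CPM was 86.4 and 83.9 in CAG replicates 1 and 2, and 91.8 and 96.0 in PGK replicates 1 and 2. The groups did not overlap, but the gap was small, with a log2 fold change of -0.14 (SE 0.19, 95% interval -0.55 to 0.27; edgeR adjusted p = 0.675). Replicates were closer than for most miRNAs: of the 436 miRNAs averaging 10 CPM or more, 11.0% had a smaller difference between CAG replicates and 19.7% a smaller one between PGK replicates. The 5p arm was a minor product, at 2.80 and 2.92 CPM in CAG replicates 1 and 2 and 8.01 and 3.21 CPM in PGK replicates 1 and 2. Both CAG values of this arm were below both PGK values. Its high value in PGK replicate 1 set it apart, and it was not called (0.499-fold; edgeR adjusted p = 0.200). The arm had 45 reads in CAG and 87 in PGK cells, a pooled count ratio of CAG over PGK of 0.491 (95% exact interval 0.335 to 0.712, counting error only).

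miR-21 did not pass the test on either arm. For miR-21-5p the log2 fold change was -0.11 (SE 0.19, 95% interval -0.54 to 0.32; edgeR adjusted p = 0.766). CAG replicates 1 and 2 held the highest and the lowest of its 4 values, so the PGK libraries lay between them. miR-21-3p had 5.75 and 8.42 CPM in CAG replicates 1 and 2, against 7.13 and 9.48 CPM in PGK replicates 1 and 2. These overlapped too, and the log2 fold change was -0.34 (SE 0.32; edgeR adjusted p = 0.543). The family with the seed AGCUUAU also holds miR-590-5p, which added 1 to 12 reads per library.

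The miR-146 pair differed in level and in the comparison. miR-146b-5p fell to 219 and 139 CPM in CAG replicates 1 and 2, against 315 and 316 CPM in PGK replicates 1 and 2. Both CAG values were below both PGK values, and the CAG libraries also differed from each other more than the PGK libraries did. The log2 fold change was -0.80 (SE 0.23, 95% interval -1.31 to -0.30; edgeR adjusted p = 0.0409), a 0.573-fold level. The call was lost with no low-count filter (adjusted p = 0.0665) and with a filter of 10 CPM in 2 libraries (0.0572). It was also lost without CAG replicate 2 (log2 fold change -0.52, adjusted p = 0.0781), without PGK replicate 1 (adjusted p = 0.267) and without PGK replicate 2 (adjusted p = 0.296), and with the replicate number as a block (adjusted p = 0.0613). In all 13 alternatives the fold change was negative.

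miR-146a-5p had 7.14 and 9.07 CPM in CAG replicates 1 and 2, and 8.38 and 7.25 CPM in PGK replicates 1 and 2. The groups overlapped, with a log2 fold change of -0.02 (SE 0.30, 95% interval -0.67 to 0.64; edgeR adjusted p = 0.976). There were 30.7 and 15.3 reads of miR-146b-5p per read of miR-146a-5p in CAG replicates 1 and 2, and 37.5 and 43.6 in PGK replicates 1 and 2. The seed that the pair shares was thus carried by miR-146b-5p for 93.9% to 97.8% of reads over all libraries. Summed as a family, GAGAACU had 185 ± 57.8 CPM in the CAG lines and 327 ± 0.603 CPM in the PGK lines (SD, n = 2) and missed the threshold (log2 fold change -0.81, SE 0.23; edgeR adjusted p = 0.0616 over 642 families, of which 10.4% were called). It was called with RLE scaling, library size scaling and DESeq2 (adjusted p = 0.0329, 0.0186 and 0.0133).

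miR-155-5p was close to the limit of detection. It had 6 and 4 reads in CAG replicates 1 and 2, and 11 and 8 reads in PGK replicates 1 and 2, which is 0.466 and 1.30 CPM against 1.38 and 1.12 CPM. The groups overlapped, and the pooled count ratio of CAG over PGK was 0.50 (95% exact interval 0.208 to 1.13). A difference was not detectable at this depth (edgeR adjusted p = 0.387). Its 3p arm had no read in any library, and neither had miR-146a-3p.

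The miR-193 and miR-365 genes form a pair of neighbours on each of 2 chromosomes. MIR193A (31559996 to 31560083) and MIR365B (31575411 to 31575521) lie 15327 bases apart on the plus strand of chromosome 17. MIR193B (14303967 to 14304049) and MIR365A (14309285 to 14309371) lie 5235 bases apart on the plus strand of chromosome 16, both in an intron of MIR193BHG. MIR365B overlaps an exon of the non-coding AC003101.1, and MIR193A overlaps no other annotated gene. The 3p arms of miR-365 cannot tell the loci apart, but the 5p arms can, as their sequences show.
miR-193b-5p: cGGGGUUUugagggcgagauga
miR-365a-5p: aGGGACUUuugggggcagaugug
miR-365b-5p: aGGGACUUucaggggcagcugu
miR-193a-5p differs from miR-193b-5p by U1C, U5G, C6U and C11A (miR-193a base first), so these arms have different seeds. miR-365a-5p differs from miR-365b-5p by U10C, G11A and A19C (miR-365a base first).

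From chromosome 17, miR-193a-5p fell to 14.2 and 16.2 CPM in CAG replicates 1 and 2, against 26.0 and 28.6 CPM in PGK replicates 1 and 2. The groups were well apart and the replicates close, with a log2 fold change of -0.87 (SE 0.24, 95% interval -1.41 to -0.33; edgeR adjusted p = 0.0382). It lost the call without CAG replicate 1 (adjusted p = 0.280), PGK replicate 1 (0.165) or PGK replicate 2 (0.248), with the replicate number as a block (0.0640) and without a low-count filter (0.0537), while the fold change stayed between -0.94 and -0.74 in all 13 alternatives. The family GGGUCUU has the same counts (edgeR adjusted p = 0.042 over the families) and is no further evidence.

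Both other arms made only at this locus had lower values in CAG cells as well, but neither was called. miR-193a-3p had 1.71 and 2.27 CPM in CAG replicates 1 and 2, against 3.25 and 3.76 CPM in PGK replicates 1 and 2. These rested on 29 reads in CAG and 53 in PGK cells, a pooled ratio of 0.520 (95% exact interval 0.319 to 0.832), with an edgeR adjusted p = 0.183. miR-365b-5p had 3.11 and 1.62 CPM in CAG replicates 1 and 2, against 5.25 and 5.58 CPM in PGK replicates 1 and 2. It had 45 reads in CAG and 82 in PGK cells, a ratio of 0.521 (0.354 to 0.759), with an edgeR adjusted p = 0.108. Exact and Wilson intervals here cover counting error only and leave out the spread between libraries. PCR copies of a molecule are counted as separate reads, so the intervals may also be too narrow for counting error.

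The chromosome 16 arms showed no such gap. miR-193b-3p had 100.3 and 119.9 CPM in CAG replicates 1 and 2, against 148 and 79.0 CPM in PGK replicates 1 and 2. The PGK libraries lay on either side of the CAG libraries, and the log2 fold change was -0.06 (SE 0.28, 95% interval -0.69 to 0.57; edgeR adjusted p = 0.906). miR-193b-5p, with 13.0 and 12.3 CPM in the CAG libraries and 13.9 and 9.90 CPM in PGK replicates 1 and 2, had a log2 fold change of 0.10 (SE 0.28). miR-365a-5p, at 55.7 and 40.5 CPM in CAG against 52.2 and 43.4 CPM in PGK replicates 1 and 2, had a log2 fold change of 0.04 (SE 0.23). In both the groups overlapped.

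Set against each other within a library, where scaling cancels, the loci kept the same direction. Over the 3 arms specific to each locus there were 0.113 and 0.116 chromosome 17 reads per chromosome 16 read in CAG replicates 1 and 2, and 0.161 and 0.287 in PGK replicates 1 and 2. The log2 difference, CAG minus PGK, was -0.91; it was -0.49 without PGK replicate 2 and -1.32 without PGK replicate 1, so its size depended on which PGK library was kept. This ratio was formed after the values were seen and the difference between the loci was not tested. miR-193a-5p reads per miR-193b-5p read were 1.09 and 1.32 in CAG and 1.87 and 2.89 in PGK replicates 1 and 2. miR-365b-5p reads per miR-365a-5p read were 0.0558 and 0.0400 in CAG and 0.101 and 0.129 in PGK replicates 1 and 2.

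**Figure D3:**
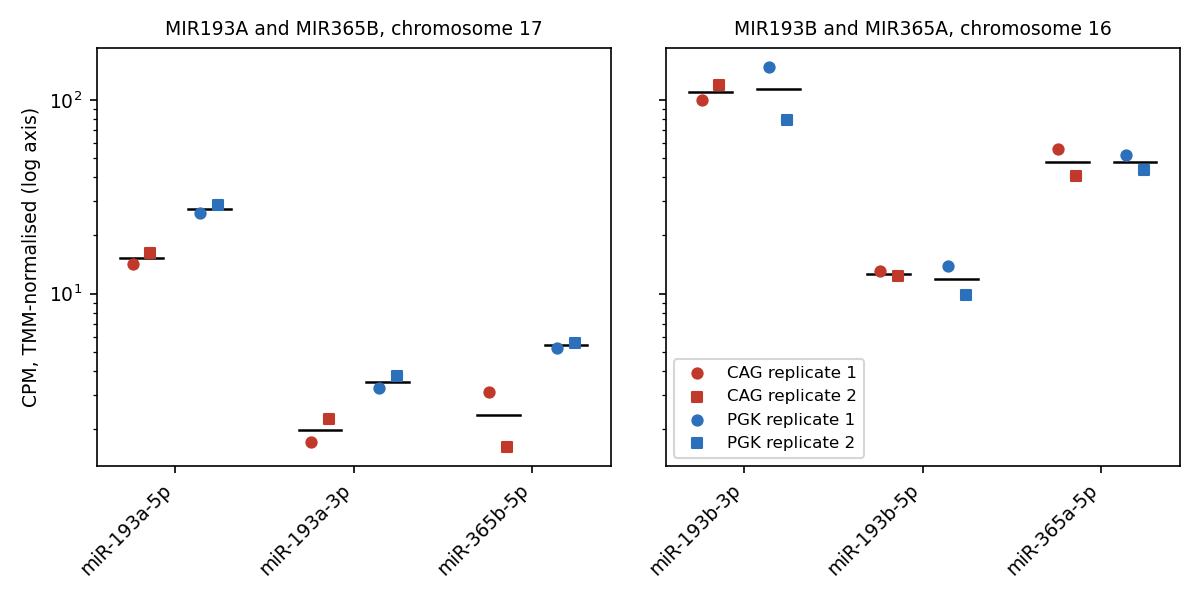
TMM-normalised CPM, on a log axis, of arms that come from only 1 locus: MIR193A and MIR365B on chromosome 17 (left) and MIR193B and MIR365A on chromosome 16 (right), with CAG libraries left of PGK libraries and black lines for group means. On the left both CAG points lie below both PGK points for each arm, and on the right the groups overlap for each arm.

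The PGK libraries lay far apart for the abundant 3p arms of this group. miR-365a-3p had 101.2 and 112 CPM in CAG replicates 1 and 2, against 183 and 85.3 CPM in PGK replicates 1 and 2. PGK replicate 1 was thus 2.15-fold above PGK replicate 2 for miR-365a-3p and 1.88-fold above it for miR-193b-3p, and of the 436 miRNAs averaging 10 CPM or more, 98.4% and 96.6% had a smaller difference between the PGK libraries. The log2 fold change of miR-365a-3p was -0.34 (SE 0.31; edgeR adjusted p = 0.525), and it was 0.30 without PGK replicate 1 and -0.79 without PGK replicate 2. For miR-193b-3p it was 0.45 without PGK replicate 1 and -0.44 without PGK replicate 2, so for both the sign depended on which PGK library was kept. The family ACUGGCC, with 111 ± 12.4 CPM in the CAG lines and 119 ± 49.2 CPM in the PGK lines (SD, n = 2), followed miR-193b-3p, which supplied 98.1% to 98.3% of the reads of the 2 miRNAs in CAG and 95.5% to 97.9% in PGK cells. It was not called, with a log2 fold change of -0.11 (SE 0.28; edgeR adjusted p = 0.857).

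The dominant arm was the same in every library. For miR-365, both hairpins were summed, because their 3p arms cannot be told apart. It was the 5p arm for miR-21, miR-146b and miR-193a and the 3p arm for miR-210, miR-193b and miR-365. miR-21 was the most one-sided, with 2133 and 978 reads of the 5p arm per 3p read in CAG replicates 1 and 2, and 1590 and 1135 in PGK replicates 1 and 2. miR-193a had the smallest spread of the log2 ratio of its arms over the libraries, with 89.3% and 87.7% of its reads from the 5p arm in CAG replicates 1 and 2, and 88.9% and 88.4% in PGK replicates 1 and 2.

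For miR-146b, CAG replicate 2 differed from all other libraries. The 5p arm held 97.8% (95% Wilson interval 97.2% to 98.3%) of its reads in CAG replicate 1 and 93.9% (91.3% to 95.7%) in CAG replicate 2, against 97.6% (97.0% to 98.2%) and 97.9% (97.2% to 98.4%) in PGK replicates 1 and 2. In that library the 5p arm was at its lowest level, 139 CPM, and the 3p arm at its highest, 9.07 CPM, while the 3p arm stood at 4.89 CPM in CAG replicate 1 and at 7.63 and 6.83 CPM in PGK replicates 1 and 2. miR-146b-3p was not called (log2 fold change -0.24, SE 0.35; edgeR adjusted p = 0.707), and whether the 5p and 3p arms changed differently between the lines was not settled.

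For miR-210, PGK replicate 1 was the exception. The 5p arm gave 3.13% (95% Wilson interval 2.27% to 4.31%) and 3.36% (1.78% to 6.26%) of reads in CAG replicates 1 and 2, against 8.02% (6.33% to 10.11%) and 3.23% (2.16% to 4.80%) in PGK replicates 1 and 2. In miR-365 the 5p arms of both loci together gave 22.5% and 15.8% in CAG replicates 1 and 2, against 13.6% and 22.3% in PGK replicates 1 and 2. The 3p sum adds the entries of both names, and the counting rule is not given. This sum was 2610 and 692 counts in CAG replicates 1 and 2, and 2927 and 1224 in PGK replicates 1 and 2. The seed family AAUGCCC, which holds both names, had 2610 and 693 counts in CAG replicates 1 and 2, and 2927 and 1223 in PGK replicates 1 and 2. Family counts were thus not always the plain sum of the entries, and how reads were shared was not tested. If each 3p read was entered under both names, the miR-365 5p shares are too low. An equal inflation in every library would leave the log2 difference between the lines unchanged. The miR-365a-3p entry alone exceeded the summed 5p reads of both loci in every library. miR-193b gave 11.5% and 9.31% from its 5p arm in CAG and 8.55% and 11.1% in PGK replicates 1 and 2. For these 3 ratios the groups overlapped.

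Over 6 arm ratios, of which that of miR-365 sums both of its hairpins, the log2 ratio of 5p to 3p reads differed between CAG and PGK by -0.74 for miR-146b, -0.69 for miR-210, 0.14 for miR-365, 0.11 for miR-21, 0.09 for miR-193b and -0.02 for miR-193a. The two-sided exact permutation test gave p = 0.667 or p = 1 for each (adjusted p = 1 over 6), where 2 libraries against 2 cannot go below 0.333. That test could not have called a shift of arm use at any size, so it says nothing of whether arm use differed between the lines.

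**Figure D4:**
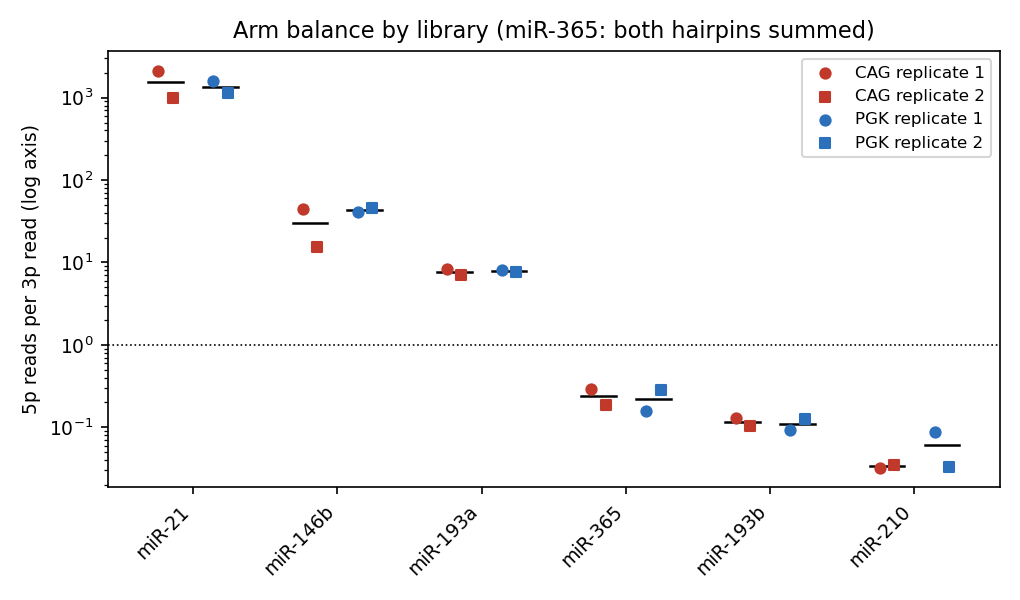
Reads of the 5p arm per read of the 3p arm in each library, on a log axis, for 5 single hairpins and for miR-365, which sums its 2 hairpins; CAG libraries stand left of PGK libraries, black lines are group means and the dotted line marks equal arms. miR-146b in CAG replicate 2 (15.3) and miR-210 in PGK replicate 1 (0.0872) stand apart from the other libraries. The miR-365 ratios are too low if each 3p read was entered under both names.

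Other miRNAs with known links to the same pathways moved in both directions. Among 13 further miRNAs linked to hypoxia, 12 were tested, 2 were lower in CAG cells and none was higher by edgeR, DESeq2 or limma-voom (1 higher at an unadjusted edgeR p under 0.05). Their median log2 fold change was -0.17. For comparison, edgeR called 6.08% of all 773 tested miRNAs lower and 8.15% higher in CAG cells. miR-424-5p, which rises in hypoxic endothelial cells, fell to 61.3 and 71.6 CPM in CAG replicates 1 and 2, against 108 and 114 CPM in PGK replicates 1 and 2 (log2 fold change -0.75, SE 0.19; edgeR adjusted p = 0.0285). miR-23a-3p fell to 248 and 290 CPM in CAG replicates 1 and 2, against 527 and 362 CPM in PGK replicates 1 and 2 (log2 fold change -0.73, SE 0.22; edgeR adjusted p = 0.0498), a call kept in 5 of 13 alternatives. The most abundant of these did not pass the test: the log2 fold change was 0.06 for miR-26a-5p, -0.08 for miR-103a-3p and -0.23 for miR-26b-5p.

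Of 14 further miRNAs linked to NF-kB and innate immunity, 13 were in the table and 12 were tested, with 3 higher and 1 lower in CAG cells and a median log2 fold change of 0.06. These counts stand beside 8.15% called higher and 6.08% called lower over all tested miRNAs. miR-9-5p, which targets NFKB1, fell to 2059 and 1767 CPM in CAG replicates 1 and 2, against 4087 and 3890 CPM in PGK replicates 1 and 2 (log2 fold change -1.06, SE 0.17; edgeR adjusted p = 0.00196). miR-125b-5p, miR-132-5p and miR-181b-5p rose with log2 fold changes of 0.87, 0.70 and 0.66 (edgeR adjusted p = 0.0111, 0.0300 and 0.0300). The calls of all 4 and of miR-424-5p depended on the libraries kept: over 13 alternatives 11 kept miR-9-5p and miR-125b-5p, 10 kept miR-181b-5p, 9 kept miR-424-5p and 8 kept miR-132-5p. All 5 lost the call without PGK replicate 1 and without PGK replicate 2 (edgeR adjusted p of 0.0982 to 0.256).

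miR-155 and miR-146a are abundant in blood cells, and miR-21 in mesenchymal cells, so markers of both were read beside them. Of 10 blood-cell miRNAs 8 had a read and 2 were tested. Their summed level was 48.1 and 55.4 CPM in CAG replicates 1 and 2, and 39.5 and 45.7 CPM in PGK replicates 1 and 2, nearly all of it from miR-486-5p and miR-486-3p. Both arms of miR-223 had no read in any library, and miR-142-3p stood at 0.250 to 0.648 CPM. Of 8 mesenchymal and endothelial miRNAs 7 had a read. They summed to 1304 and 1190 CPM in CAG replicates 1 and 2, and 1808 and 1614 CPM in PGK replicates 1 and 2, mostly from miR-126-3p, which was not called (log2 fold change -0.50; edgeR adjusted p = 0.0793). In this list miR-143-3p was higher and miR-126-5p lower in CAG cells (log2 fold changes of 1.32 and -0.89; edgeR adjusted p = 0.0214 and 0.0291, each kept in 9 of 13 alternatives and lost without CAG replicate 1, PGK replicate 1 or PGK replicate 2 and with the replicate block), miR-199a-3p was not called (0.83; adjusted p = 0.0659), and miR-214-3p had no read. Their part in the values of the 10 miRNAs was not tested. No miRNA list defines HEK293T, so the label of the line was not checked against markers.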

How the data were processed

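Per the labels' protocols, total RNA was isolated with Trizol from HEK293T cells, and the NEBNext Small RNA kit was used for the libraries. The authors deposited whole-number counts for 2656 mature miRNAs and 2094 seed families, 1 column per library, without pooling. Trimming, aligner, counting rule and build: not given in the sources used here. miR-199a-3p and miR-199b-3p, 1 sequence from 2 and 1 hairpins, stood at a count ratio of 2.01, and miR-365a-3p and miR-365b-3p at 0.999.

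Counts were tested with edgeR 4.0.16 (quasi-likelihood, robust, TMM, group as the only term; minimum count 10, total 15) in R 4.3.3, which kept 773 miRNAs and 642 families. Each standard error came from the fold change and its F statistic. Replicates differed well beyond counting noise (chi-square per degree of freedom 125 for CAG and 66.1 for PGK), so none is a copy. The test was checked on simulated counts, with 4-fold changes in 200 of 773 miRNAs and the same replicate variation (coefficient 0.18) for every miRNA. It recovered 97.5% of the changes, and 3.47% of its calls were false. Smaller changes, such as those of the 2 called miRNAs, were not simulated. DESeq2 1.42.0, limma 3.58.1 (voom), other scalings and filters, a replicate block, removal of the 5 most abundant miRNAs and each library left out were alternatives. Python 3.11.15 and scipy 1.17.1 gave permutation tests and intervals.

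The members and lists were chosen with earlier results of these data known. The text names all 10 miRNAs, the other arms of their hairpins with a read, and of each further list the called and the 3 most abundant miRNAs; zero-read and marker entries beyond that were named after their values were seen. Every column of both tables was used.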

Additional observations from a re-analysis of the deposited data

How the results depend on the processing

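Counts of calls depended on the libraries and on the model. Over all miRNAs 110 were called, 16 to 162 with each library left out and 63 with the replicate block; over families 67 were called, 14 to 60 and 21. Of the 10 miRNAs 2 were called, 0 to 1 with each library left out. With no low-count filter 0 were called by edgeR (3 at an unadjusted p under 0.05), with the replicate block 0 (2 unadjusted), and with the filter of 10 CPM in 2 libraries 1. Where a group kept a single library, that library was assumed to vary like the other group. Same-numbered libraries did not deviate together (correlation 0.04 over 436 miRNAs). That value cannot tell whether they were grown or prepared together, which the labels do not give. Of 126 member values over the alternatives, 106 kept direction and call, 11 lost the call and 9 changed sign. These 9 came from leaving out a library and, for miR-146a-5p, also from DESeq2 (0.00). With a library left out, ranges were -0.42 to 0.16 for miR-21-5p, -0.52 to 0.04 for miR-21-3p and -0.13 to 0.22 for miR-146a-5p. They were -1.40 to 0.06 for miR-155-5p, -0.44 to 0.45 for miR-193b-3p and -0.79 to 0.30 for miR-365a-3p. Outside the 126 values, the other arms miR-365a-5p (-0.23 to 0.22) and miR-193b-5p (-0.13 to 0.35) also changed sign with a library left out. Arm ratios changed sign with a library left out for all 6 ratios: -0.46 to 0.67 for miR-21, -0.13 to 0.09 for miR-193a, -1.51 to 0.04 for miR-146b, -0.12 to 0.31 for miR-193b, -1.38 to 0.01 for miR-210 and -0.30 to 0.57 for miR-365; pooled counts gave 0.04 for miR-193a. The cause was not tested. CAG replicate 2, with the fewest counts, limits low miRNAs most: miR-155-5p rested on 4 reads there.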
